A study of Mus musculus with 8 samples.

Results

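The constitutive proteasome genes were taken as all rows of the count table whose symbol is Psma, Psmb, Psmc or Psmd followed by a number, without the immunoproteasome genes Psmb8, Psmb9 and Psmb10. The rule gave 36 of 26667 genes, of which 16 encode subunits of the 20S core (Psma1 to Psma8, Psmb1 to Psmb7 and Psmb11) and 20 carry 19S names (Psmc1 to Psmc6 and Psmd1 to Psmd14). Transcripts were measured by RNA-seq in 8 undifferentiated pleomorphic sarcomas (UPS), 1 library per tumour, raised by injecting an adenovirus that expresses Cre into the hind limb muscle of mice of mixed 129/C57BL/6 strain, 8 weeks or older at injection. The 4 KP tumours (KP 5 to KP 8, labelled wild type) carried Trp53 fl/fl on the sarcoma background that both groups share. The 4 KPH2 tumours (KPH2 1 to KPH2 4, labelled Epas1 -/-) carried the same alleles as KP and in addition Epas1 fl/fl, so that HIF-2alpha, the oxygen-regulated transcription factor encoded by Epas1, was removed together with p53. Recombination is limited to cells that the virus reached, so host cells of a KPH2 tumour that it did not reach keep Epas1, and which cells recombined was not measured here. The RNA came from sections of formalin-fixed, paraffin-embedded tumours, and in such bulk samples fewer cells of a type and less RNA per cell cannot be told apart.

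The proteasome is the protease that degrades proteins tagged with ubiquitin. Its barrel-shaped 20S core is built of outer rings of alpha subunits (Psma), which gate the entrance, and inner rings of beta subunits (Psmb), of which Psmb5, Psmb6 and Psmb7 carry the active sites. The 19S cap recognises ubiquitin chains, removes them and unfolds the substrate with a ring of ATPases (Psmc), held by non-ATPase subunits (Psmd). In cultured cells, loss of proteasome activity is known to raise the transcription of most subunit genes together through NRF1 (Nfe2l1), which binds antioxidant response elements in their promoters, and in skeletal muscle the genes are known for their rise during wasting. Not all members are constitutive subunits in the strict sense: Psma8 belongs to a proteasome of the testis, Psmb11 to a proteasome of the thymic cortex, and Psmd5, Psmd9 and Psmd10 encode chaperones that help to assemble the 19S base and then leave it. All 5 were kept because the rule includes them.

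Promoter sequences from RefSeq (GRCm38.p6, 250 bases before to 50 bases after the annotated start) were matched for 29 of the 36 members. Both strands were searched for 4 short motifs, and matches to different motifs did not overlap in any member promoter. The antioxidant response element core TGACNNNGC was present for 5 members (17.2%) and in 12.4% of all 32851 promoters, and CCAAT, the CCAAT box, for 12 members (41.4%) and in 37.4% of all. TATAAA was present for 3 members (10.3%) and in 13.6% of all, and CCGGAAG, the core bound by ETS factors, for 10 members (34.5%) and in 8.86% of all. Only Psmc6 and Psmd12 held both the antioxidant response element core and the ETS core. The promoters of Psmc6, Psmb6 and Psmc1 are shown because these genes are among the members that differed most between the groups and hold one or both of these cores. They are a selection. Among the other members with an unadjusted p under 0.05 (edgeR, described further on), Psma7, Psmb3 and Psmd1 held neither core. Psmb5 held the antioxidant response element core, and Psmc3 and Psmd3 had no matched promoter. Capitals mark matches to TGACNNNGC, CCAAT or CCGGAAG on either strand, and a match is a description of the letters only.
Psmc6 (chr14:45329574-45329873, plus strand): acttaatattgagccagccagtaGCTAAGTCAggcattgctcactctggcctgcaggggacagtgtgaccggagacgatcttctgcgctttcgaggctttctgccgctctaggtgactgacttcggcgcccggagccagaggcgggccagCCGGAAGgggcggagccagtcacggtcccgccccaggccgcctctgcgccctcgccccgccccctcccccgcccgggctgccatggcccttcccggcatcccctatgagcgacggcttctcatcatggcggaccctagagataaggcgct
Psmb6 (chr11:70525107-70525406, plus strand): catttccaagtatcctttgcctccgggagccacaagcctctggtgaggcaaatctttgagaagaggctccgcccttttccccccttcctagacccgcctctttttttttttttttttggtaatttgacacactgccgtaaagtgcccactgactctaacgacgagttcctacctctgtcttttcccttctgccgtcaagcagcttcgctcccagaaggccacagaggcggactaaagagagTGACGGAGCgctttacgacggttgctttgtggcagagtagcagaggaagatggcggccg
Psmc1 (chr12:100109952-100110251, plus strand): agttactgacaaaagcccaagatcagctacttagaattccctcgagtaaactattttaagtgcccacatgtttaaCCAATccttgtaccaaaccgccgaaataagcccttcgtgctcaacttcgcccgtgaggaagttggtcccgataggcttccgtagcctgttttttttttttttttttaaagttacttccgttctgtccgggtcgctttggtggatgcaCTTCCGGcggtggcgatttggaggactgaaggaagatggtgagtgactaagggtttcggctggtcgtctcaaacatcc
In the Psmc6 window the ETS core began 100 bases before the start and the antioxidant response element core, on the minus strand, 227 bases before it. The Psmb6 window held the antioxidant response element core 9 bases before the start used for that window. That start is not the first base of the gene span given for Psmb6 further on, 70525324, and the match lies inside that span. The Psmc1 window held the ETS core on the minus strand 28 bases before its start.

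Library totals ran from 6463221 to 13155510 counts, and the members took 0.279% to 0.374% of them. The level of Epas1, the deleted gene, was 59.6, 82.2, 85.5 and 85.1 CPM (counts scaled to a common library size, as CPM with TMM factors) in KP 5 to KP 8 and 32.0, 54.2, 37.8 and 42.4 CPM in KPH2 1 to KPH2 4. It was lower in every KPH2 tumour than in any KP tumour, and transcript remained in all of them. Counts are per gene, so they do not show which exons the remaining transcript held. The paper reports efficient deletion of Epas1 in KPH2 tumours by PCR. The deposited table of 7 normalized tumours lacks KPH2 1, and the study's methods leave a knockout tumour out as a technical outlier, so KP 5 to KP 8 were compared with KPH2 2 to KPH2 4 and KPH2 1 is given apart. Over these 7 tumours the log2 fold change of Epas1 was -0.81 with a standard error (SE) of 0.19 (adjusted p = 0.0742, edgeR's quasi-likelihood test, adjusted by Benjamini-Hochberg across the 14867 genes tested, as for every adjusted p here unless another tool is named). At an adjusted p of 0.05, 292 of all genes tested passed.

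Members were first ranked by their level per length, as CPM per kilobase of exon in the mean of the 7 tumours. The length was the union of exons over annotated transcripts, so ranks and medians per kilobase depend on that annotation. Apart from Psma8 and Psmb11, the 34 genes spanned a 15.6-fold range, from 130 CPM per kilobase for Psmb6 to 8.34 for Psmd9. The 6 highest were Psmb6, Psmd2 (111), Psmb4 (110), Psmb2 (105), Psmb7 (104) and Psma7 (93.3). The beta genes had the highest median of the 4 families, 104 CPM per kilobase, against 67.8 for the alpha genes, 57.6 for the ATPase genes and 43.5 for the non-ATPase genes. The median was 75.0 CPM per kilobase over 14 genes of the 20S core and 46.8 over the 20 genes with 19S names. As background, the stable subunits of each subcomplex occur in equal numbers in the particle.

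Within families the spread was uneven. The 6 ATPase genes lay within 1.75-fold of each other, from Psmc6 at 39.4 to Psmc1 at 69.1 CPM per kilobase. Among the alpha genes Psma7 was highest and Psma3, at 26.4, lowest after Psma8. The place of Psma3 depends on the length used. Its exon union was 2846 bases against 1165 for Psma4, while its mean CPM in KP was higher (70.2 against 63.2). Psmb5, which carries the chymotrypsin-like site, was at 21.2 CPM per kilobase, the lowest beta gene after Psmb11, whereas Psmb6 (caspase-like site) and Psmb7 (trypsin-like site) were among the 6 highest of all members. Among the non-ATPase genes Psmd2, the scaffold on which ubiquitin receptors dock, was highest, and the 3 chaperone genes Psmd5 (15.7), Psmd10 (10.9) and Psmd9 (8.34) were the lowest, the next being Psmd13 at 28.8.

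**Figure D1:**
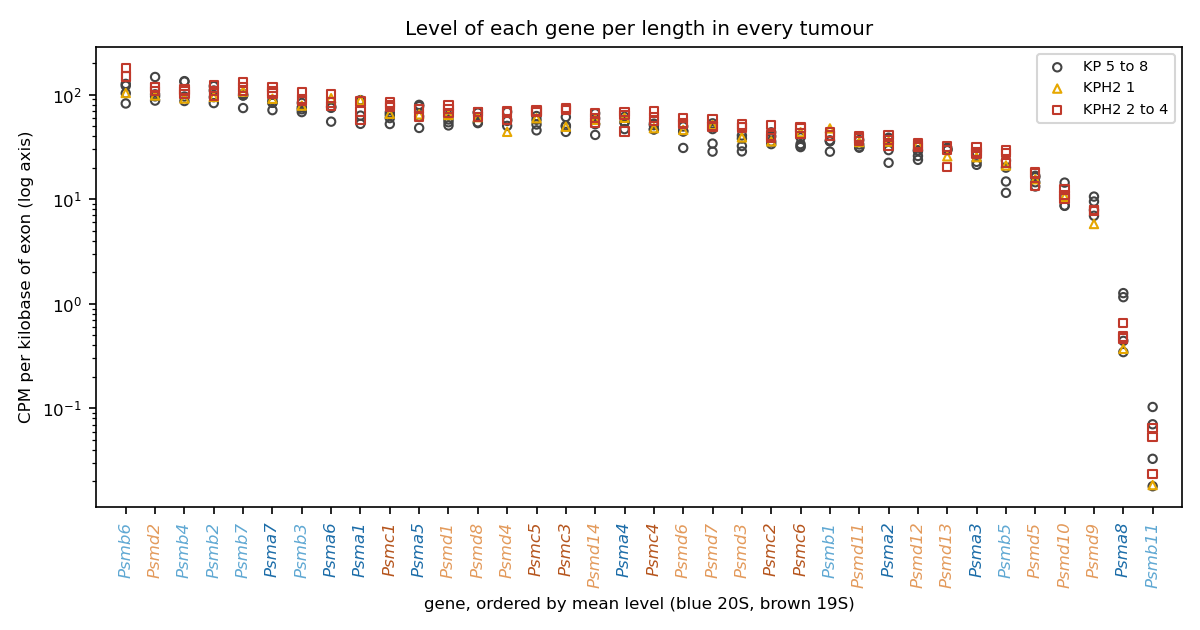
Level of each of the 36 genes in CPM per kilobase of exon (log axis) in every tumour, genes ordered by their mean, with circles for KP 5 to 8, squares for KPH2 2 to 4 and a triangle for KPH2 1. Apart from Psma8 and Psmb11 the genes run from 130 to 8.34 CPM per kilobase, with Psmd5, Psmd10 and Psmd9 at the low end.

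The tissue-restricted genes were close to the limit of detection. Psmb11 had 1 to 4 counts in each library and was not tested. Psma8 was at 0.747, 1.96, 0.583 and 2.14 CPM in KP 5 to KP 8, at 0.823, 1.10 and 0.787 CPM in KPH2 2 to KPH2 4 and at 0.627 CPM in KPH2 1. Its values overlapped between the groups (log2 fold change -0.60, SE 0.54, adjusted p = 0.619, and -1.23 with the skeletal muscle covariate described further on), and it failed the count filter once KPH2 1 was added.

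None of the 35 members tested differed between KPH2 2 to KPH2 4 and KP at an adjusted p of 0.05, against 1.96% of all genes tested. Without adjustment for multiple tests, 10 members (28.6%) had a p under 0.05, all with the higher level in KPH2, against 8.5% of all genes tested that were higher and 9.26% that were lower at the same threshold. The level was higher in KPH2 for 30 members and lower for 5, where 48% of all genes tested were higher. In 15 members (42.9%) every one of the 3 KPH2 tumours lay above every KP tumour, as in 9.01% of all genes tested, and in 0 members did every KPH2 tumour lie below (7.83% of all genes). The differences were small: the median log2 fold change was 0.21 over the members and -0.02 over all genes tested. The largest was 0.58 and, leaving Psma8 aside, the lowest was -0.17. Leaving out KPH2 2 lowered the number with an unadjusted p under 0.05 from 10 to 3 (6.63% of all genes were higher at that threshold in the same fit, and 13.6% differed in either direction), and a term for skeletal muscle markers, described further on, lowered it to 0 (3.03% and 6.98%). That term also raised the SE of every member, from a median of 0.16 to 0.30.

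**Figure D2:**
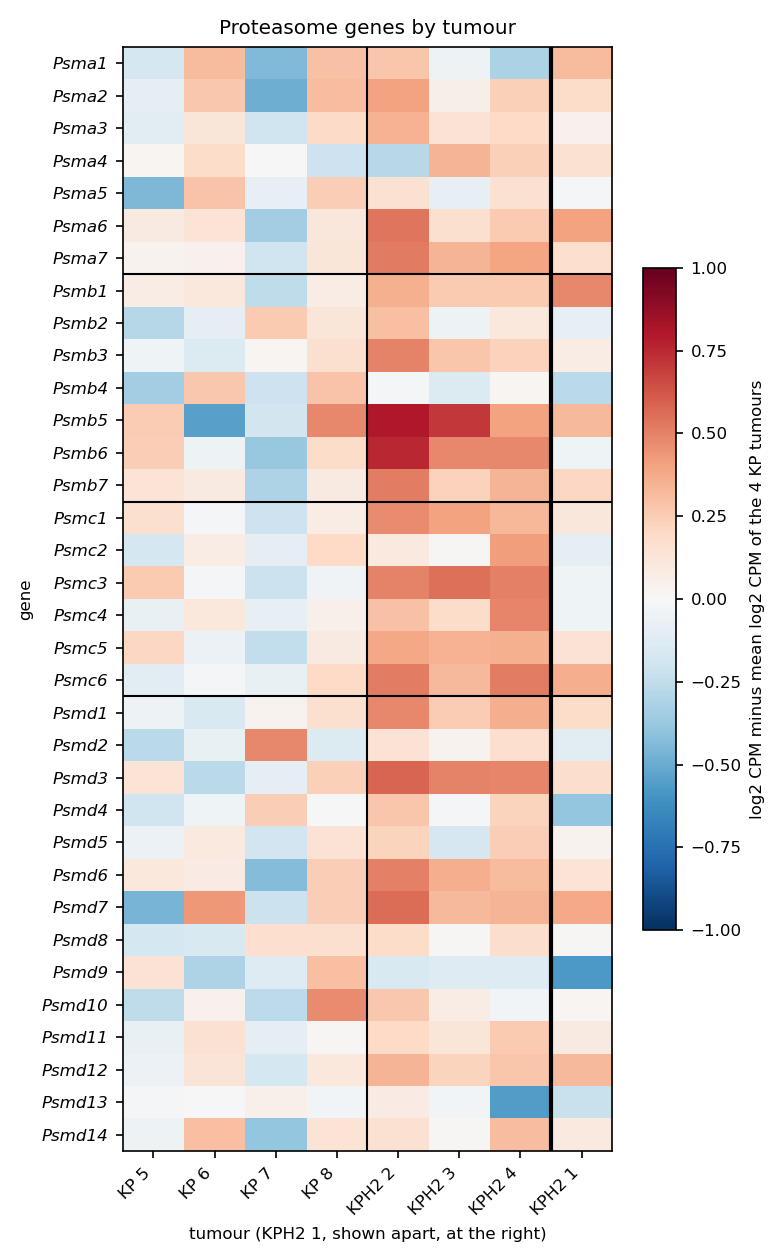
Level of 34 members (rows, without Psma8 and Psmb11) in each tumour (columns) as log2 CPM minus the mean of the 4 KP tumours, red above and blue below, with lines between Psma, Psmb, Psmc and Psmd. KPH2 2 to KPH2 4 are red in most rows, KP 7 is blue in most rows, with Psmd2 its reddest, and KPH2 1, at the right, is mixed.

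Of the 8 alpha genes, 6 had a higher level in KPH2, with a median log2 fold change of 0.15. Psma7, a ring subunit encoded on chromosome 2 (180036367 to 180042464, GRCm38), was at 98.5, 98.8, 83.8 and 105 CPM in KP 5 to KP 8 and at 138, 121 and 126 CPM in KPH2 2 to KPH2 4, with KPH2 1 at 108 CPM. Every KPH2 tumour, KPH2 1 included, was above every KP tumour, and the log2 fold change was 0.40 (SE 0.13, adjusted p = 0.160). Psma6 was at 85.8, 88.5, 63.3 and 87.1 CPM in KP 5 to KP 8, at 116, 89.9 and 96.4 CPM in KPH2 2 to KPH2 4 and at 106 CPM in KPH2 1. These groups also did not overlap, although KP 6 and KPH2 3 were close (log2 fold change 0.30, SE 0.16, adjusted p = 0.391, and 0.15 with the muscle covariate). For the other alpha genes the values overlapped. Psma1 had 78.2, 110, 65.2 and 108 CPM in KP 5 to KP 8 and 107, 85.3 and 71.0 CPM in KPH2 2 to KPH2 4. KP 7 and KPH2 4 were its lowest tumours, and the log2 fold change was -0.06 (SE 0.23). It ran from -0.21 to 0.07 when single tumours were left out, and was 0.04 over all 8 tumours and -0.50 with the muscle covariate. Psma2 to Psma5 had log2 fold changes of 0.04 to 0.21, or 0.07 to 0.26 with the muscle covariate. Psma5 has a pseudogene copy, Gm8394, with 93.3% identity over 945 bases, so its counts are uncertain.

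The beta genes had a median log2 fold change of 0.32, with 6 of 7 tested higher in KPH2. Psmb6, for the caspase-like site, lies on chromosome 11 (70525324 to 70527858). It was at 101, 82.2, 65.6 and 96.9 CPM in KP 5 to KP 8, at 144, 119 and 119 CPM in KPH2 2 to KPH2 4 and at 82.7 CPM in KPH2 1. The 3 KPH2 tumours were above every KP tumour and KPH2 1 was inside the KP range (log2 fold change 0.54, SE 0.17, adjusted p = 0.149, and 0.23 with the muscle covariate). Psmb7, for the trypsin-like site, was at 118, 114, 86.3 and 114 CPM in KP 5 to KP 8, at 153, 126 and 136 CPM in KPH2 2 to KPH2 4 and at 124 CPM in KPH2 1. Every KPH2 tumour was above every KP tumour (log2 fold change 0.34, SE 0.15, adjusted p = 0.284, and 0.22 with the muscle covariate). Psmb7 shares 405 bases of exon, 11.8% of its exons, with Nek6 on the other strand. Psmb5, for the chymotrypsin-like site, was at 18.0, 10.3, 13.3 and 21.0 CPM in KP 5 to KP 8, at 26.2, 24.7 and 19.9 CPM in KPH2 2 to KPH2 4 and at 18.9 CPM in KPH2 1. It had the largest log2 fold change of any member, 0.58, with one of the largest errors (SE 0.25, adjusted p = 0.277), and KPH2 4 was below KP 8. With the skeletal muscle score as a covariate its log2 fold change was -0.02 (SE 0.40). Psmb5 shares 109 bases of exon, 12.1% of its exons, with Mir686 on the same strand, so reads there may not have been assigned to it.

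The beta genes Psmb1 to Psmb4, which carry no active site, were split. Psmb1 was at 123, 125, 97.6 and 123 CPM in KP 5 to KP 8, at 149, 139 and 140 CPM in KPH2 2 to KPH2 4 and at 163 CPM in KPH2 1, its highest tumour. The groups did not overlap with or without KPH2 1 (log2 fold change 0.27, SE 0.14, adjusted p = 0.341, and 0.15 with the muscle covariate). Psmb3 was at 55.4, 52.1, 57.9 and 63.8 CPM in KP 5 to KP 8, at 80.4, 69.2 and 66.9 CPM in KPH2 2 to KPH2 4 and at 60.1 CPM in KPH2 1. Its 3 KPH2 tumours were above the KP range and KPH2 1 was inside it (log2 fold change 0.32, SE 0.14, adjusted p = 0.275, and 0.21 with the muscle covariate). Psmb4 was at 103, 157, 113 and 159 CPM in KP 5 to KP 8 and at 129, 119 and 132 CPM in KPH2 2 to KPH2 4. Its KPH2 tumours sat between KP 5 and KP 7 on one side and KP 6 and KP 8 on the other, with a log2 fold change of -0.08 (SE 0.19, adjusted p = 0.866, and -0.02 with the muscle covariate). The fold change ran from -0.18 to 0.01 when single tumours were left out. Psmb2 also overlapped, with a log2 fold change of 0.10, or 0.31 with the muscle covariate.

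All 6 ATPase genes had a higher level in KPH2, with a median log2 fold change of 0.36, and for 5 of them the 3 KPH2 tumours did not overlap KP. Psmc3, on chromosome 2 (91054016 to 91059438), had the smallest p of any member. It was at 125, 103, 89.97 and 101 CPM in KP 5 to KP 8 and at 147, 153 and 148 CPM in KPH2 2 to KPH2 4, but at 101 CPM in KPH2 1, which was inside the KP range. The log2 fold change was 0.49 (SE 0.14, adjusted p = 0.122) over 7 tumours and 0.38 over all 8. Psmc3 shares 215 bases, 8.25% of its exons, with Slc39a13 on the other strand. Psmc6, on chromosome 14 (45329823 to 45349074), was at 70.3, 75.2, 72.0 and 86.9 CPM in KP 5 to KP 8, at 108, 94.9 and 108 CPM in KPH2 2 to KPH2 4 and at 97.7 CPM in KPH2 1. It was the only ATPase gene in which all 4 KPH2 tumours were above all 4 KP tumours (log2 fold change 0.43, SE 0.13, adjusted p = 0.143). DESeq2's Wald test put Psmc3 past the adjusted threshold over 7 tumours (adjusted p = 0.0375) and Psmc6 over all 8 tumours (adjusted p = 0.0406), while DESeq2 called 7.95% of all genes over the 7 tumours and 4.14% over all 8. The limma test on the deposited rlog values, which called 2.17% of all genes, called 0 members.

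Psmc1, whose tail opens the gate of the core as does that of Psmc3, was at 107, 94.9, 83.3 and 102 CPM in KP 5 to KP 8, at 134, 127 and 121 CPM in KPH2 2 to KPH2 4 and at 104 CPM in KPH2 1. The log2 fold change was 0.38 (SE 0.13, adjusted p = 0.183, and 0.19 with the muscle covariate), and KPH2 1 was inside the KP range. Psmc4 was at 67.3, 76.0, 66.8 and 73.4 CPM in KP 5 to KP 8, at 86.8, 80.2 and 99.3 CPM in KPH2 2 to KPH2 4 and at 68.8 CPM in KPH2 1, again inside the KP range (log2 fold change 0.31, SE 0.14, adjusted p = 0.284, and 0.54 with the muscle covariate). Psmc5 was at 82.1, 68.2, 59.9 and 75.7 CPM in KP 5 to KP 8, at 92.7, 90.1 and 91.0 CPM in KPH2 2 to KPH2 4 and at 78.3 CPM in KPH2 1. Its KPH2 tumours were close together and above KP 5, the highest KP tumour (log2 fold change 0.34, SE 0.14, adjusted p = 0.259, and 0.19 with the muscle covariate). Psmc2 was the exception, with KPH2 2 and KPH2 3 inside the KP range and a log2 fold change of 0.17, or 0.44 with the muscle covariate.

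Of the 14 non-ATPase genes 12 had a higher level in KPH2, with a lower median log2 fold change of 0.14. Psmd3, a lid subunit encoded on chromosome 11 (98682554 to 98695978), was at 81.6, 61.5, 69.3 and 87.4 CPM in KP 5 to KP 8, at 111, 105 and 104 CPM in KPH2 2 to KPH2 4 and at 83.7 CPM in KPH2 1. Its 3 KPH2 tumours were above every KP tumour (log2 fold change 0.50, SE 0.15, adjusted p = 0.134, and 0.31 with the muscle covariate). Psmd1, the largest 19S subunit, was at 169, 158, 180 and 196 CPM in KP 5 to KP 8, at 244, 209 and 226 CPM in KPH2 2 to KPH2 4 and at 199 CPM in KPH2 1, so that all 4 KPH2 tumours were above KP (log2 fold change 0.35, SE 0.13, adjusted p = 0.214). It shares 301 bases, 4.14% of its exons, with Gm21972 on the same strand, which the count table lacks. It also shares 252 bases, 3.47%, with Htr2b on the other strand, which the count table holds. Psmd12, a lid subunit, was at 68.6, 77.8, 63.0 and 76.6 CPM in KP 5 to KP 8, at 90.2, 83.3 and 86.5 CPM in KPH2 2 to KPH2 4 and at 89.0 CPM in KPH2 1, also without overlap over all 8 tumours (log2 fold change 0.26, SE 0.13, adjusted p = 0.346). Psmd6, another lid subunit, was at 62.2, 61.5, 42.9 and 68.8 CPM in KP 5 to KP 8, at 82.4, 74.5 and 72.1 CPM in KPH2 2 to KPH2 4 and at 63.7 CPM in KPH2 1, inside the KP range (log2 fold change 0.36, SE 0.17, adjusted p = 0.323, and 0.07 with the muscle covariate).

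Psmd14, the deubiquitinase that cuts the ubiquitin chain from the substrate, was at 80.3, 102, 63.4 and 91.2 CPM in KP 5 to KP 8, at 92.3, 83.7 and 103 CPM in KPH2 2 to KPH2 4 and at 88.6 CPM in KPH2 1. The groups overlapped, with a log2 fold change of 0.13 (SE 0.18, adjusted p = 0.773, and 0.23 with the muscle covariate). It ran from 0.02 to 0.24 when single tumours were left out. Psmd2 was at 260, 298, 437 and 285 CPM in KP 5 to KP 8 and at 347, 322 and 352 CPM in KPH2 2 to KPH2 4. KP 7 was its highest tumour, and the log2 fold change was 0.07 (SE 0.20), 0.27 without KP 7, -0.01 without KP 5 and 0.53 with the muscle covariate. The 2 genes of this family with a lower level in KPH2 were Psmd9 and Psmd13. Psmd9, a chaperone of the base, was at 24.7, 18.0, 20.4 and 27.5 CPM in KP 5 to KP 8, at 20.1, 20.5 and 20.5 CPM in KPH2 2 to KPH2 4 and at 15.04 CPM in KPH2 1 (log2 fold change -0.17, SE 0.18, adjusted p = 0.681, and -0.36 with the muscle covariate). When single tumours were left out, its log2 fold change ran from -0.26 to -0.07. Psmd13, a lid subunit, was at 59.0, 59.8, 61.8 and 58.5 CPM in KP 5 to KP 8, at 63.2, 58.7 and 40.5 CPM in KPH2 2 to KPH2 4 and at 51.1 CPM in KPH2 1. Its lower mean rested on KPH2 4 (log2 fold change -0.16, SE 0.17, adjusted p = 0.691), since it was 0.01 without that tumour. With the muscle covariate it was -0.55 (SE 0.32). Psmd13 shares 342 bases, 10.1% of its exons, with Sirt3, and Psmd9 shares 1849 bases, 25.5%, with the noncoding gene Gm26745, both on the other strand. The count table holds Sirt3 and lacks Gm26745. Psmd4, Psmd5, Psmd7, Psmd8, Psmd10 and Psmd11 overlapped between the groups, with log2 fold changes of 0.07 to 0.36, or -0.24 to 0.45 with the muscle covariate.

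**Figure D3:**
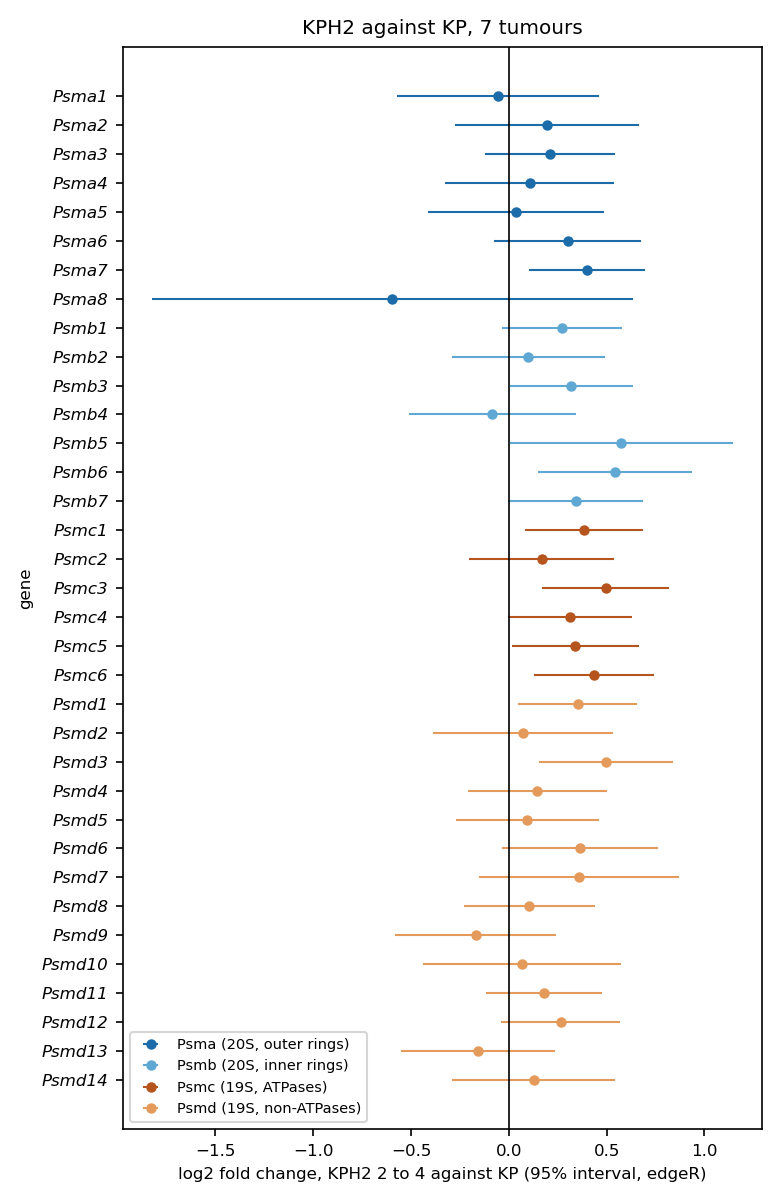
Log2 fold change (x axis) of the 35 members tested (y axis), KPH2 2 to 4 against KP, as points with 95% intervals from edgeR before adjustment for multiple tests. All 6 ATPase genes lie to the right of 0, and Psma8, at -0.60, has the widest interval.

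The medians of the 20S and 19S genes were close. The median log2 fold change was 0.21 over the 15 core genes tested, of which 12 were higher in KPH2, and 0.22 over the 20 genes with 19S names, of which 18 were higher. The mean log2 CPM of the core genes was 5.79, 5.98, 5.63 and 6.09 in KP 5 to KP 8, 6.19, 6.05 and 6.04 in KPH2 2 to KPH2 4 and 5.95 in KPH2 1. KP 8 was above KPH2 3 and KPH2 4 on this measure, so the groups overlapped, at 5.87 ± 0.20 (SD, n = 4) and 6.09 ± 0.08 (SD, n = 3). For the 19S names the mean log2 CPM was 6.20, 6.27, 6.16 and 6.39 in KP 5 to KP 8, 6.56, 6.42 and 6.51 in KPH2 2 to KPH2 4 and 6.28 in KPH2 1. Here the 3 KPH2 tumours, at 6.497 ± 0.07 (SD, n = 3), were above every KP tumour, at 6.25 ± 0.10 (SD, n = 4), and KPH2 1 was inside the KP range. The core mean minus the 19S mean, a balance within each library, was -0.41, -0.29, -0.53 and -0.30 in KP 5 to KP 8, -0.37, -0.38 and -0.47 in KPH2 2 to KPH2 4 and -0.33 in KPH2 1. The group means of this balance were, for the KP tumours, -0.38 ± 0.11 (SD, n = 4) and, for KPH2 2 to KPH2 4, -0.41 ± 0.05 (SD, n = 3), a difference of -0.03 that was smaller than the spread within either group.

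Tumours of 1 group were not alike. For each gene the 8 tumours were set against their median: KPH2 2 was above it for 33 of 35 members, KPH2 4 for 31 and KPH2 3 for 23. KP 5 to KP 8 were above it for 6, 14, 5 and 18 members, and KPH2 1 for 10. KPH2 2 was the highest tumour for 20 members, and KP 7 was the lowest for 19 while being the highest for Psmd2. The SD of log2 CPM over the 7 tumours had a median of 0.24 over the members and 0.35 over all genes tested, and of 0.26 over the core genes and 0.23 over the 19S names.

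KPH2 1 did not share the higher level of the other KPH2 tumours for most members. It was inside the KP range for 25 of 35 members, above it for 7 and below it for 3, and it was below KPH2 2 to KPH2 4 for 21. The 7 members above the KP range were Psma6, Psma7, Psmb1, Psmb7, Psmc6, Psmd1 and Psmd12, which are also the members (20% of 35) whose 4 KPH2 tumours were all above all 4 KP tumours, against 3.75% of all genes tested over 8 tumours. With KPH2 1 counted in the group, 0 of 34 members passed the adjusted threshold, as against 0.00675% of all genes, and 10 again had an unadjusted p under 0.05 with the higher level in KPH2, where 6.65% of all genes did, and 0 with the lower level, where 8.02% did. In 0 members did all 4 KPH2 tumours lie below KP, as in 4.4% of all genes, and 31 of 34 members were higher in KPH2, as were 50.9% of all genes. The median log2 fold change was then 0.23 for the core genes, 0.20 for the 19S names and 0.01 for all genes.

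Levels of marker genes of other tissues differed between the groups as well. All 30 skeletal muscle markers (contractile and sarcoplasmic genes of mature fibres) were higher in KPH2 2 to KPH2 4, 29 of them with an unadjusted p under 0.05 and 3 past the adjusted threshold, with a median log2 fold change of 2.22. Their summed level was 1817 to 3406 CPM in KP, 4378 to 19876 CPM in KPH2 2 to KPH2 4 and 1500 CPM in KPH2 1, and none was at 0 in any tumour. Their mean log2 CPM was 4.39, 3.68, 3.22 and 4.49 in KP 5 to KP 8, 6.67, 7.25 and 4.92 in KPH2 2 to KPH2 4 and 3.24 in KPH2 1. KPH2 4 had far less of it than KPH2 2 and KPH2 3, with a mean of the 19S names between theirs and the lowest mean of the core genes of the 3. Among the KP tumours, KP 5 had the highest summed level of muscle markers. For both proteasome means and for the muscle score, the mean log2 CPM of the markers, KP 7 was lowest and KP 8 highest. KP 5 was above KP 6 on this score (4.39 against 3.68) and below it on both proteasome means. With this score as a covariate in the 7-tumour fit, 28 members were higher in KPH2 and 7 lower (Psmb5 and Psmd10 changed direction), the median log2 fold change was 0.15 for the core genes and 0.28 for the 19S names, no member had an unadjusted p under 0.05, and the share of all genes with such a p was 6.98% in place of 17.8%. The log2 fold change of Psmc6 was 0.49 with an SE of 0.26 in that fit, and that of Psmd1 0.37 with an SE of 0.26. Of the 15 members whose groups did not overlap, 9 had a fold change lower by over 1.5 times and 3 (Psmc4, Psmc6 and Psmd1) a larger one. The part of the muscle RNA in the proteasome values was not tested beyond this fit.

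**Figure D4:**
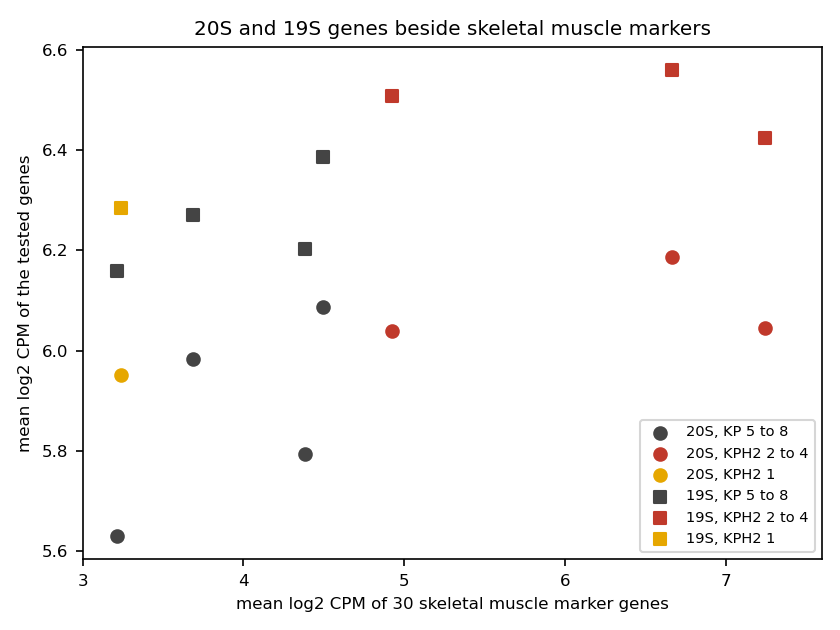
Mean log2 CPM of the 15 core genes (circles) and of the 20 genes with 19S names (squares) in each tumour against the mean log2 CPM of 30 skeletal muscle markers. KPH2 2 to 4 (red) have the highest muscle scores, 4.92 to 7.25, while KP (grey) runs from 3.22 to 4.49 and KPH2 1 (yellow) is at 3.24.

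Markers of other cell types are given beside them. Macrophage markers were lower in KPH2 2 to KPH2 4 for 11 of 11 genes (median log2 fold change -0.43, 4 with an unadjusted p under 0.05), with a summed level of 2312 to 4134 CPM in KP and 1752 to 2517 CPM in KPH2 2 to KPH2 4. Endothelial markers were lower for 9 of 10 (median -0.56, 5 with an unadjusted p under 0.05), at 349 to 595 CPM against 301 to 329 CPM, and T and NK cell markers for 9 of 10 (median -0.65, 0 with such a p), at 13.7 to 48.7 CPM against 15.8 to 31.4 CPM. Of 10 mesenchymal tumour markers 8 were lower (median -0.33, 1 past the adjusted threshold), at 17876 to 41957 CPM against 21768 to 30583 CPM. Proliferation genes were higher for 13 of 16 (median 0.20, 1 with an unadjusted p under 0.05), with a mean log2 CPM of 5.83 to 6.21 in KP, 6.14 to 6.15 in KPH2 2 to KPH2 4 and 6.38 in KPH2 1, which was the highest. All 3 epithelial markers tested were higher (median 5.73, 3 with an unadjusted p under 0.05 and 2 past the adjusted threshold). Krt8 was at 267 and 282 CPM in KPH2 2 and KPH2 4 and at most 6.93 CPM elsewhere, and Krt18 at 205, 41.0 and 228 CPM in KPH2 2 to KPH2 4, 55.1 CPM in KPH2 1 and at most 4.47 CPM in KP, while Krt5 and Krt14 were at 0 in every tumour. Only 2 of 8 adipocyte markers had enough counts to be tested. The part of these cells in the proteasome values was not tested.

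Genes that work with the constitutive proteasome were taken from fixed lists, of which 46 of 47 genes in the table were tested. None passed the adjusted threshold, and 3 of the 46 had an unadjusted p under 0.05, all higher in KPH2, against 8.5% of all genes tested that were higher and 17.8% in either direction. The median log2 fold change was 0.06, with 29 higher and 17 lower. Values are given for 2 of the 3. Uchl5, a deubiquitinase that docks on the 19S cap, was at 21.4, 25.7, 20.7 and 28.5 CPM in KP 5 to KP 8, at 38.3, 37.4 and 34.1 CPM in KPH2 2 to KPH2 4 and at 40.6 CPM in KPH2 1. All 4 KPH2 tumours were above all KP tumours (log2 fold change 0.59, SE 0.16, adjusted p = 0.110 by edgeR and 0.0399 by DESeq2). Btrc, the substrate receptor of a ubiquitin ligase, was at 24.8, 22.5, 14.0 and 16.1 CPM in KP 5 to KP 8, at 30.7, 30.2 and 31.2 CPM in KPH2 2 to KPH2 4 and at 21.0 CPM in KPH2 1, inside the KP range (log2 fold change 0.65, SE 0.22, adjusted p = 0.171).

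Nfe2l1, which encodes NRF1, was at 238, 208, 287 and 309 CPM in KP 5 to KP 8, at 281, 256 and 223 CPM in KPH2 2 to KPH2 4 and at 248 CPM in KPH2 1. The groups overlapped (log2 fold change -0.05, SE 0.17, adjusted p = 0.910, and -0.24 with the muscle covariate), and 7 of the 10 genes of the NRF1 list were lower in KPH2, with a median of -0.13. Transcript level does not show the activity of NRF1, which is set by cleavage of the protein. Pomp, the chaperone that joins the beta rings, was at 59.8, 68.5, 63.6 and 85.2 CPM in KP 5 to KP 8 and at 71.7, 66.4 and 64.3 CPM in KPH2 2 to KPH2 4, with KPH2 1 at 63.1 CPM (log2 fold change -0.05, SE 0.16, adjusted p = 0.908, and -0.19 with the muscle covariate). The median log2 fold change was 0.11 for 5 core assembly chaperones, 0.21 for 5 activators and inhibitors, 0.05 for 7 further genes of the 19S cap, 0.08 for 11 shuttle factors and 0.23 for 5 ubiquitin and E1 genes.

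The immunoproteasome genes replace the catalytic beta subunits in immune cells and after interferon. Psmb8 was at 38.8, 27.7, 17.8 and 50.1 CPM in KP 5 to KP 8, at 26.2, 20.2 and 29.6 CPM in KPH2 2 to KPH2 4 and at 12.0 CPM in KPH2 1 (log2 fold change -0.42, SE 0.33, adjusted p = 0.556). Psmb9 was at 11.6, 8.38, 5.69 and 16.8 CPM in KP 5 to KP 8, at 7.31, 6.72 and 10.6 CPM in KPH2 2 to KPH2 4 and at 2.98 CPM in KPH2 1 (log2 fold change -0.39, SE 0.37, adjusted p = 0.636). For both genes the groups overlapped and KPH2 1 was the lowest tumour. When single tumours were left out, the log2 fold change ran from -0.62 to -0.17 for Psmb8 and from -0.62 to -0.09 for Psmb9. Psmb10 was at 18.0, 15.7, 15.7 and 21.7 CPM in KP 5 to KP 8, at 22.4, 20.5 and 21.3 CPM in KPH2 2 to KPH2 4 and at 11.2 CPM in KPH2 1, again the lowest (log2 fold change 0.25, SE 0.17, adjusted p = 0.497, and 0.10 with the muscle covariate). Whether these fold changes differ from those of Psmb5, Psmb6 and Psmb7, the genes they replace, was not tested.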

How the data were processed

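RNA-seq was measured in 4 KP and 4 KPH2 tumours, and each replicate is a separate labelled tumour. The authors deposited a table of raw counts, made by alignment to GRCm38 with STAR 2.4 and counting of uniquely aligned reads over RefSeq genes with HTSeq 0.6.1, and log2 values from DESeq2 1.6 (rlog) over 7 and over 8 tumours. Libraries were rRNA-depleted and stranded. The strand setting of the counting is not given in the sources used here. Where counted genes overlap on opposite strands, it is therefore not known whether reads there were assigned to the right gene or left out.

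Differences were tested on the counts with edgeR 4.0.16 under R 4.3.3 (TMM, filterByExpr with minimum count 10 and minimum total 15, robust quasi-likelihood test, no covariate) over all genes, with Benjamini-Hochberg adjustment and a threshold of 0.05. Log2 CPM used a prior count of 2. Levels per kilobase used the union of exons of basic protein-coding transcripts in a GENCODE annotation of GRCm38. DESeq2 1.42.0 and limma 3.58.1 (on the deposited log2 values) were alternatives, as were other normalizations, filters, a muscle covariate and leaving out each tumour; edgeR was tested on simulated data. Copies were sought with minimap2 2.31 (at least 90% identity over at least 200 bases).

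The members and the gene lists were chosen with earlier results of these data known, so no test over a list was made. Named with values were the catalytic beta genes, Psmd14, Psma8, Psmb11, the 4 members with the smallest p in each direction, members whose groups did not overlap, and the highest and lowest of each family per kilobase; from the pathway lists, Nfe2l1, Pomp, the immunoproteasome genes and 2 of the 3 with an unadjusted p under 0.05, the other not being reported here, as 1 shared allele of the mice is not. Psma1, Psma5, Psmd2, Psmb2, Psmc2 and others given only by their fold change were added to account for every member. Library totals were 6463221 to 13155510 counts, and the SE and intervals reflect the spread between 4 and 3 tumours as well as counting.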

Additional observations from a re-analysis of the deposited data

Results flagged for a closer look

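The value of each tumour was set against the other 3 of its group for the 36 members, the pathway genes given with their values, Epas1, the 20S and 19S means and their balance, and the muscle and proliferation scores, and a tumour was singled out where its gap to the nearest other was larger, as a share of the group's range, than Dixon's 95% critical value for 4 values. Of 98 groups examined 8 were singled out, and chance alone does so for about 1 in 20 groups. KP 7 was far below the other KP tumours for Psma6 (63.3 CPM), Psmb1 (97.6 CPM) and Psmb7 (86.3 CPM). KPH2 1 was far below the other KPH2 tumours for Psmc3 (101 CPM), Psmd9 (15.04 CPM) and Btrc (21.0 CPM). KP 5 was far below the other KP tumours for Epas1 (59.6 CPM), and KPH2 1 far above the other KPH2 tumours for the proliferation score (mean log2 CPM 6.38). The cause was not tested.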

How the results depend on the processing

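The number of members with an adjusted p under 0.05 stayed at 0 in edgeR with the other samples, normalizations, filters, dispersion estimate and covariate tried, in limma on the deposited log2 values, and without any 1 of the 7 tumours. DESeq2 called 1 member over 7 tumours (Psmc3, adjusted p = 0.0375) and 1 member over all 8 (Psmc6, adjusted p = 0.0406), and likewise 1 pathway gene, Uchl5, over 7 tumours (adjusted p = 0.0399) and 1, again Uchl5, over all 8 (adjusted p = 0.0118). The fit over all 8 tumours with DESeq2 and the counts of groups that do not overlap under other samples were added after the data had been seen. Leaving out each tumour in turn, the median log2 fold change ran from 0.18 to 0.29 for the 20S genes and from 0.18 to 0.27 for the 19S names, the 20S minus 19S balance differed between the groups by -0.07 to 0.01, and the members whose groups did not overlap numbered 15 to 19, where 11.2% to 13.6% of all genes tested had every KPH2 tumour above KP. The count of members with an unadjusted p under 0.05 was 10 in the fit reported, 3 without KPH2 2, 7 to 10 without any other tumour, 8 with no filter on low counts, 11 with limma and 0 with the muscle covariate, all higher in KPH2. The share of all genes that were higher at that threshold was 8.5% in the fit reported, 6.63% without KPH2 2, 6.78% to 9.73% without any other tumour, 7.04% with no filter, 8.93% with limma and 3.03% with the covariate. The lowest adjusted p of any member was 0.0641 in edgeR without KP 5 and 0.754 with the muscle covariate. All genes past the adjusted threshold numbered 292 over 7 tumours, 55 without KPH2 2, 73 without KP 7, 3 with the muscle covariate, 1 over all 8 tumours and 1179 with DESeq2. No paired analysis was possible because the KP tumours are numbered 5 to 8 and the KPH2 tumours 1 to 4, so that no replicate number is shared.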
